A study of Mus musculus with 18 samples.

Results

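The cytochrome P450 genes of the mouse kidney cortex were taken as every row of the expression table whose symbol starts with Cyp, a family number, a subfamily letter and a gene number. The rule used no measured value. It gave 103 of the 24062 symbols, including pseudogene symbols that fit the pattern. Of these, 45 reached at least 1 CPM (reads scaled to a common library total) in at least 3 of the 18 libraries and were tested, among 14604 genes tested in all. The sterol demethylase Cyp51 has no subfamily letter in its symbol, so it was not a member and is described with the sterol genes.

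The study compared kidneys of C57Bl/6 mice with floxed Klf6 alleles (Klf6fl/fl, called fl/fl here) with kidneys labelled Klf6PTKO, for the loss of Klf6 in the proximal tubule, and called "labelled PTKO" here. Klf6 encodes a zinc finger transcription factor. Each genotype was given the DMSO vehicle, aristolochic acid I (AAI, a toxin of Aristolochia plants that damages tubular cells) over 3 weeks, or the same AAI course followed by 3 weeks of remodeling, a time the labels call 6 weeks. Each of the 6 groups has 3 libraries of total RNA from perfused cortex, and every mean ± SD below has n = 3. Each genotype has 1 DMSO group, used as the control at both times, and the labels do not give the week at which it was taken. They name neither the Cre driver nor the age of the mice, and do not tell whether each library is a separate animal. The p-values below therefore rest on the spread among libraries, part of which may be technical.

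Cytochrome P450 enzymes are heme proteins of the endoplasmic reticulum or the mitochondrion that insert an oxygen atom into their substrates, with electrons from P450 oxidoreductase or from ferredoxin. In the kidney they are found mainly in the proximal tubule, where Cyp4a and Cyp4f enzymes hydroxylate the end of fatty acids, Cyp2c and Cyp2j enzymes make epoxides of arachidonic acid, and the vitamin D enzymes activate and break down calcitriol. CYP1A enzymes are known to metabolise aristolochic acids, and several Cyp2 and Cyp4 genes differ between male and female mouse kidneys.

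Reads per library ran from 11722625 to 27213219, and the 6-week fl/fl replicates 2 and 3 had the fewest. Klf6 RNA did not separate the genotypes in whole cortex (39.7, 39.2 and 42.3 CPM in the fl/fl DMSO libraries against 40.2, 43.2 and 56.7 in those labelled PTKO), so its level does not check the genotype label. The proximal tubule S1 and S2 marker list (10 genes) summed to 18438 to 19513 CPM in fl/fl DMSO and 18664 to 22279.7 in labelled PTKO DMSO. It summed to 2936 to 5513 and 5418 to 8399.8 CPM at 3 weeks of AAI and to 3259.9 to 5334 and 6355 to 8031 at 6 weeks, in the same order of genotypes. The macrophage list (9 genes, of which Adgre1 was not analysed here) had sums of 123 to 175 and 114 to 135 CPM in the DMSO groups, 4874 to 8099.9 and 1590.0 to 3117 at 3 weeks, and 2793 to 4864 and 1013 to 2265 at 6 weeks. In these bulk samples fewer cells of a type and less RNA per cell cannot be told apart. The 3 libraries left out together because they stood apart within their groups were fl/fl DMSO replicate 1, with the most liver transcripts of its group, 6-week fl/fl replicate 2, and 6-week labelled PTKO replicate 2, where 8 adipocyte markers summed to 718 CPM against 72.4 and 37.9 in the other libraries of its group. Counts are given with and without them. The 8 liver markers summed to 369, 232 and 293 CPM in fl/fl DMSO. Other libraries stood further apart on that list and were left out only singly. They were 3-week fl/fl replicate 1 (1055 against 366 and 313 CPM) and 3-week labelled PTKO replicate 3 (1046 against 394 and 598). A further library, 6-week labelled PTKO replicate 3, also differed from its group, with androgen-regulated genes (6 genes) at 921 CPM against 10803 and 8123, fibroblast and pericyte markers at 196 against 623 and 730 and collecting duct and distal markers at 15367 against 9370 and 7045. It was left out singly.

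Summed over the 103 genes, P450 RNA was several-fold lower after AAI in both genotypes. In the fl/fl DMSO libraries the sum came to 14754, 14454 and 12832 CPM, and in the labelled PTKO DMSO libraries to 13913, 13450.2 and 12185. It was 2773, 1954 and 1704 CPM in the 3-week fl/fl libraries and 2529, 3987 and 4352 in those labelled PTKO, and no AAI library reached the lowest DMSO library. The 6-week sums came to 2445, 4416 and 3067 CPM for fl/fl and 5118, 4993 and 3035 for labelled PTKO. A few genes carried this sum. Over the 6 DMSO libraries Cyp4b1 gave 35.1% of the P450 reads, Cyp2e1 18.7% and Cyp2j5 18%, together 71.9%. In the fl/fl groups Cyp4b1 gave 37.2% with DMSO, 10.3% at 3 weeks and 7.88% at 6 weeks. Per kilobase of the longest annotated transcript, the fl/fl DMSO levels were 2757 ± 265 CPM for Cyp4b1, 1369.5 ± 263 for Cyp2e1 and 1086 ± 9.29 for Cyp2j5. At 3 weeks of AAI in fl/fl these became 116 ± 50, 189.8 ± 147 and 203 ± 49.5 CPM per kilobase, so that Cyp2j5 then had the highest level of the members.

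**Figure D1:**
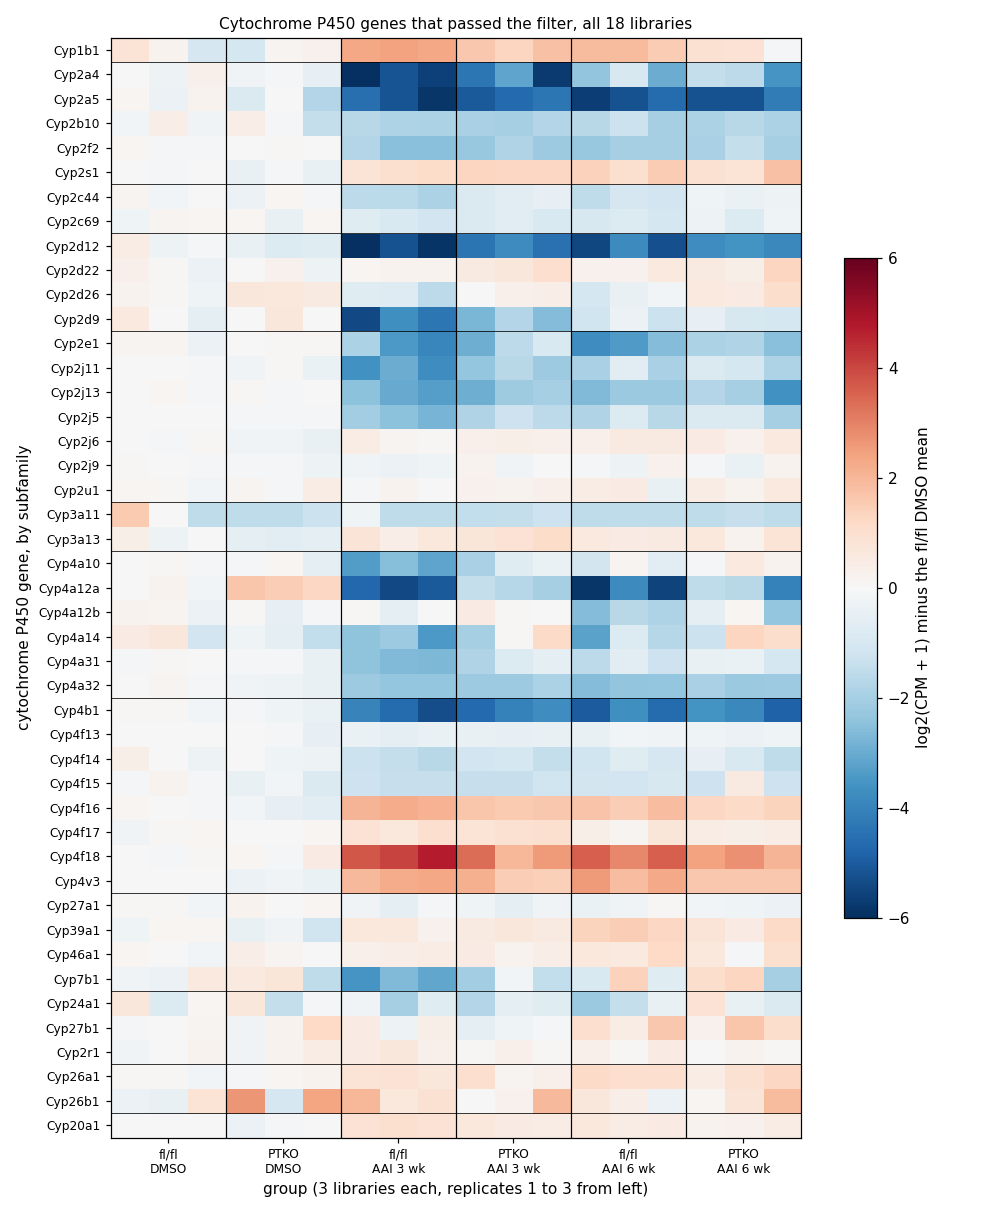
Level of each of the 45 tested P450 genes (rows, by subfamily) in each of the 18 libraries (columns, 3 per group), as log2(CPM + 1) minus the fl/fl DMSO mean. Most rows of the Cyp2 and Cyp4a subfamilies are lower in all 12 AAI libraries, and a smaller set, with Cyp4f18, Cyp1b1, Cyp4v3 and Cyp4f16, is higher.

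Each change is a log2 fold change fitted by limma to log2(CPM + 1), and its p-value is Benjamini-Hochberg adjusted across all 14604 tested genes, with a call at an adjusted p under 0.05. At 3 weeks of AAI in fl/fl, 23 of the 45 members fell and 11 rose. Among all genes tested 18.2% fell and 58% rose. The members' median log2 fold change was -0.98, against 0.45 over all genes. In the libraries labelled PTKO 21 members fell (13.9% of all genes) and 11 rose (57.2%), with a median of -0.55 against 0.42. At 6 weeks 23 fell (13.9%) and 13 rose (59.8%) in fl/fl, with a median of -0.56 against 0.45. In labelled PTKO at 6 weeks 15 fell (11.4%) and 11 rose (53.7%), with a median of -0.04 against 0.36.

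Of the tested members, 35 passed the filter on low values from the DMSO libraries alone and from the AAI libraries alone. Cyp4f14, Cyp4f15, Cyp2c69, Cyp4a32 and Cyp2b10 passed only through the DMSO libraries, Cyp4f18, Cyp26a1, Cyp3a13 and Cyp46a1 only through the AAI libraries, and Cyp3a11 only over both, so for the first 9 the filter itself favours a call in that direction. Because most genes rose on the CPM scale, the split depends on the scaling. Median-of-ratios scaling took the median of all genes in fl/fl at 3 weeks from 0.45 to 0.03, and the members to 26 lower and 8 higher. Quantile normalization took that median to -0.09 and the members to 27 lower and 6 higher. For labelled PTKO at 3 weeks these were 23 lower and 9 higher, and 26 and 7. For fl/fl at 6 weeks they were 27 and 8, and 28 and 6. For labelled PTKO at 6 weeks they were 20 and 8, and 23 and 7. Both scalings moved changes downward, with more members lower and fewer higher in each AAI comparison. Rises of about 1 or less on the log2 scale may thus depend on the scaling, as do falls called only after rescaling. Without the 3 libraries that stood apart, 44 members were tested and the counts of lower and higher were 23 and 9, 21 and 11, 18 and 13, and 15 and 12, in the order of comparisons above. Without 6-week replicate 3 labelled PTKO, 10 were lower and 10 higher in labelled PTKO at 6 weeks.

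**Figure D2:**
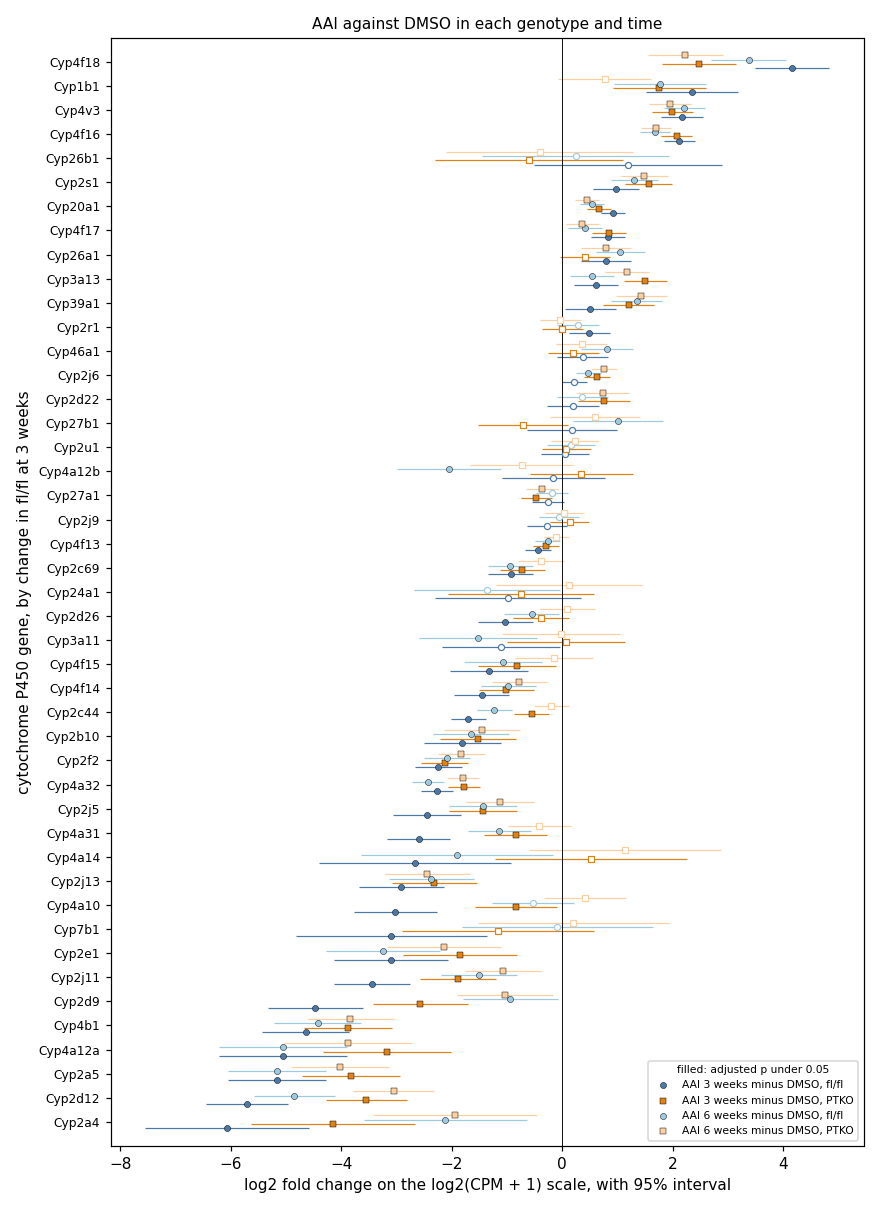
Log2 fold change (AAI minus DMSO, log2(CPM + 1) scale) of each tested P450 gene with its 95% confidence interval, for each genotype at 3 and 6 weeks. Filled symbols have an adjusted p under 0.05. Cyp2a4, Cyp2d12, Cyp2a5 and Cyp4a12a are at the low end and Cyp4f18 at the high end for fl/fl at 3 weeks.

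Cyp4b1, which hydroxylates fatty acids and activates some plant furans and aromatic amines, was the most abundant P450 transcript of the untreated cortex. The fl/fl DMSO libraries held 5484, 5526 and 4637 CPM and the labelled PTKO DMSO libraries 4771, 4313 and 3928. AAI took it to 318, 214 and 129 CPM in fl/fl and 202, 312 and 396 in labelled PTKO at 3 weeks, and the 6-week libraries held 161, 411 and 209.8 and 431, 350.4 and 181. Every AAI library lay far below every DMSO library, at both times. The log2 fold change in fl/fl was -4.65 ± 0.37 (SE; adjusted p = 1.78e-08) at 3 weeks and -4.43 ± 0.37 (SE; adjusted p = 5.56e-08) at 6 weeks. In labelled PTKO it was -3.88 ± 0.37 (SE; adjusted p = 2.32e-07) and -3.84 ± 0.37 (SE; adjusted p = 5.06e-07). No regain from 3 to 6 weeks was called in either genotype (0.22 (adjusted p = 0.73) in fl/fl and 0.05 (adjusted p = 0.956) in labelled PTKO).

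Cyp2e1, which oxidises ethanol and small solvents, stood at 2762, 2814 and 1955 CPM in fl/fl DMSO and 2547, 2622 and 2591 in labelled PTKO DMSO. With AAI it was 657, 225 and 161 CPM in fl/fl and 326, 843 and 1316 in labelled PTKO at 3 weeks, then 183, 233 and 408 and 668, 703 and 433 at 6 weeks. The AAI libraries lay below all DMSO libraries of their genotype, and the 2 genotypes overlapped at 3 weeks. The fall was -3.10 ± 0.49 (SE; adjusted p = 2.55e-05) in fl/fl and -1.86 ± 0.49 (SE; adjusted p = 0.00289) in labelled PTKO at 3 weeks, and -3.25 and -2.14 at 6 weeks (adjusted p = 2.05e-05 and 0.00128).

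Cyp2j5, an epoxygenase of arachidonic acid, was even across the DMSO libraries, at 2524, 2567 and 2550.4 CPM in fl/fl and 2364, 2368 and 2316 in labelled PTKO. It was 599.9, 462 and 369 and 718, 1063 and 853 CPM at 3 weeks, and 734, 1425 and 792 and 1407, 1397 and 630.5 at 6 weeks. Each AAI group lay wholly below its DMSO group. The log2 fold change at 3 weeks was -2.44 ± 0.29 (SE; adjusted p = 1.28e-06) in fl/fl and -1.44 ± 0.29 (SE; adjusted p = 0.000369) in labelled PTKO, and at 6 weeks it was -1.44 and -1.13 (adjusted p = 0.000342 and 0.00313). Cyp2j13 and Cyp2j11 of the same cluster on chromosome 4 also fell. Cyp2j13 averaged 719.9 ± 55.97 CPM in fl/fl DMSO and 97.2 ± 30.3 at 3 weeks, a change of -2.92 ± 0.36 (SE; adjusted p = 2.13e-06), and at 6 weeks it was still -2.37 in fl/fl and -2.45 in labelled PTKO (adjusted p = 2.58e-05 and 3.25e-05). Cyp2j11 went from 265 ± 8.93 to 24.1 ± 7.79 CPM in fl/fl (-3.45 ± 0.32 (SE; adjusted p = 8.98e-08)). Of the other Cyp2j genes tested, Cyp2j9 and Cyp2j6 did not fall. Cyp2j9 averaged 12.9 ± 0.634 CPM in fl/fl DMSO and 10.4 ± 0.636 at 3 weeks and was called in no AAI comparison. Cyp2j6 spanned 58.3 to 64.2 CPM in fl/fl DMSO and 74.6 to 89.7 at 6 weeks, a rise of 0.47 (adjusted p = 0.00103) that was -0.01 (adjusted p = 0.944) with median-of-ratios scaling. Of the 10 genes of the Cyp2e, Cyp2j, Cyp2u and Cyp2w subfamilies, 7 were tested, and 4 fell in each of the 4 AAI comparisons (11.4% to 18.2% of all genes). In each of these but fl/fl at 3 weeks, where 0 rose, 1 rose (53.7% to 59.8% of all genes).

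**Figure D3:**
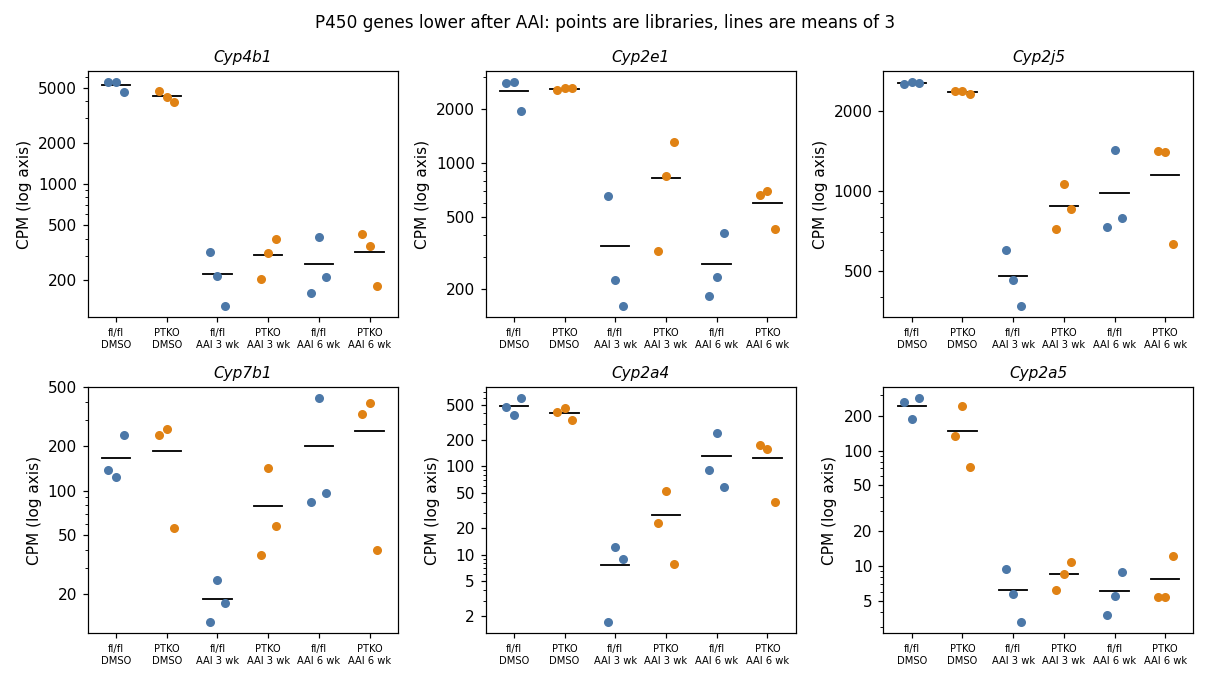
CPM (log axis) of 6 P450 genes lower after AAI. Each point is a library, black lines are the means of 3, and groups run from DMSO to 6 weeks. Cyp4b1 and Cyp2a5 stay far below DMSO in every AAI library, while Cyp2a4 and Cyp7b1 reach higher values in some 6-week libraries.

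Cyp2a4 and Cyp2a5 are near-identical genes on chromosome 7 that encode a testosterone hydroxylase and the enzyme that hydroxylates coumarin. Both fell steeply with 3 weeks of AAI, and in fl/fl only Cyp2a4 was called higher again at 6 weeks. The 250 bases before each start site, from RefSeq on GRCm38.p6, are shown because the genes share them almost entirely. Cyp2a4 is at chr7:26306942-26307191 and Cyp2a5 at chr7:26835089-26835338, both on the plus strand, printed 5′ to 3′. Capitals mark TATAAA, the letters of a TATA box near the start.
Cyp2a4: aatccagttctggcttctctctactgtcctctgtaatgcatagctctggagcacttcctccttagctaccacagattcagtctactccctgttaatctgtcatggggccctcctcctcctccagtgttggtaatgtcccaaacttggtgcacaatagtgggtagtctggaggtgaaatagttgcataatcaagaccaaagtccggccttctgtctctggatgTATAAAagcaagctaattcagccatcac
Cyp2a5: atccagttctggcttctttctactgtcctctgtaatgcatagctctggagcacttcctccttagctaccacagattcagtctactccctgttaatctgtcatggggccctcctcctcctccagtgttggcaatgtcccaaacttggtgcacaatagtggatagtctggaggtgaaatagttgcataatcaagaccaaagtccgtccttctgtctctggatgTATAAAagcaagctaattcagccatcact
An alignment gave 245 identical columns of 251 (97.6%), with 2 gap columns. The substitutions, with positions from 1 at the first printed base of Cyp2a4 and the Cyp2a4 base first, were C19T, T131C, G161A and G205T. The motif is present in both genes, and a match is not evidence of a bound site.

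Cyp2a4 was 471, 385 and 591 CPM in the fl/fl DMSO libraries and 416, 456 and 333 in those labelled PTKO. At 3 weeks it was 1.72, 12.1 and 8.9 CPM in fl/fl and 22.96, 52.7 and 7.78 in labelled PTKO, and at 6 weeks 90.9, 240.0 and 59 and 174, 157 and 39.6. The 3-week and 6-week fl/fl libraries did not overlap each other or DMSO. The 3-week change was -6.07 ± 0.70 (SE; adjusted p = 9.02e-07) in fl/fl and -4.15 ± 0.70 (SE; adjusted p = 7.06e-05) in labelled PTKO, and the 6-week change was -2.11 and -1.94 (adjusted p = 0.0124 and 0.0231). The 6-week calls were lost without single libraries. In fl/fl the value without 6-week replicate 3 was -1.68 (adjusted p = 0.0636). In labelled PTKO it was -1.26 (adjusted p = 0.132) without 6-week replicate 3, -1.91 (adjusted p = 0.0545) without DMSO replicate 1 and -1.84 (adjusted p = 0.0596) without DMSO replicate 2.

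Cyp2a5 was 263, 188 and 284 CPM in fl/fl DMSO and 133, 241 and 71.7 in labelled PTKO DMSO, and the 12 AAI libraries held 3.27 to 12.2 CPM. Its 6-week fl/fl libraries (3.79, 5.54 and 8.82 CPM) overlapped the 3-week ones (9.48, 5.77 and 3.27 CPM). The log2 fold changes in fl/fl were -5.17 ± 0.42 (SE; adjusted p = 1.9e-08) at 3 weeks and -5.17 ± 0.42 (SE; adjusted p = 3.66e-08) at 6 weeks. The 6-week minus 3-week change in fl/fl was 3.96 ± 0.70 (SE; adjusted p = 0.00291) for Cyp2a4 and 0.01 ± 0.42 (SE; adjusted p = 0.994) for Cyp2a5, and the difference between the genes was not tested. By letters, 41.9% of the 31-base words of Cyp2a4 and 45.4% of those of Cyp2a5 occur in no other gene, so how the authors' counting split reads between the pair bears on both values.

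Of the 14 genes of the Cyp2a, Cyp2b, Cyp2f, Cyp2g, Cyp2s and Cyp2t subfamilies, Cyp2a4 and Cyp2a5 included, 5 were tested, and in each AAI comparison 4 fell and 1 rose. Of all genes 11.4% to 18.2% fell and 53.7% to 59.8% rose in these comparisons. Cyp2f2, which activates naphthalene, went from 8.55 ± 0.723 CPM to 1.08 ± 0.651 in fl/fl (-2.24 ± 0.20 (SE; adjusted p = 4.79e-08)). Cyp2b10, the target of the nuclear receptor CAR, went from 3.03 ± 0.988 to 0.133 ± 0.114 CPM (-1.81 ± 0.33 (SE; adjusted p = 0.000104)), at levels of few reads. It passed the filter only through the DMSO libraries, which favours a call of a fall. Cyp2s1, known to be induced by dioxin, was the 1 gene of this group that rose. It was 23.9, 22.2 and 23.5 CPM in fl/fl DMSO, 41.7, 46.8 and 51.5 at 3 weeks and 62.8, 46.5 and 69.1 at 6 weeks, with every AAI library above every DMSO library. The change was 0.97 ± 0.20 (SE; adjusted p = 0.000322) at 3 weeks and 1.30 ± 0.20 (SE; adjusted p = 2.44e-05) at 6 weeks in fl/fl, and 1.56 and 1.49 in labelled PTKO (adjusted p = 4.22e-06 and 1.21e-05).

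In the Cyp2d subfamily 4 of 10 genes were tested. Cyp2d9, a testosterone hydroxylase, was 200.3, 134 and 88.9 CPM in fl/fl DMSO and 131, 217 and 131 in labelled PTKO DMSO. It was 2.13, 9.66 and 5.71 CPM in fl/fl and 19.4, 38.5 and 21.3 in labelled PTKO at 3 weeks, and 57.3, 105 and 54.7 and 94.8, 69.1 and 64.03 at 6 weeks. At 3 weeks the 2 genotypes were apart from each other and from DMSO, and at 6 weeks the fl/fl libraries reached into the DMSO range. The 3-week change was -4.47 ± 0.41 (SE; adjusted p = 6.68e-08) in fl/fl and -2.57 ± 0.41 (SE; adjusted p = 3.83e-05) in labelled PTKO. At 6 weeks it was -0.94 (adjusted p = 0.046) and -1.04 (adjusted p = 0.0345). The fl/fl call ended without any of 9 of the 18 libraries (highest adjusted p = 0.194, without fl/fl DMSO replicate 1). The labelled PTKO call ended without DMSO replicate 2 (-0.80 (adjusted p = 0.135)), 6-week replicate 2 (-0.98 (adjusted p = 0.0794)) or 6-week replicate 3 (-0.93 (adjusted p = 0.0957)).

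Cyp2d12 had the largest fall at both times among the Cyp2d genes. It was 121, 72.1 and 83.97 CPM in fl/fl DMSO, 0.411, 1.45 and 0.523 at 3 weeks and 1.05, 5.46 and 1.39 at 6 weeks, with changes of -5.71 ± 0.35 (SE; adjusted p = 1.08e-09) and -4.85 ± 0.35 (SE; adjusted p = 1.09e-08). In labelled PTKO it was 65.9, 50.3 and 54.8 CPM with DMSO, 3.4, 5.73 and 3.04 at 3 weeks and 5.97, 6.68 and 5.27 at 6 weeks, with changes of -3.55 and -3.05 (adjusted p = 2.8e-07 and 2.52e-06). All AAI libraries of this gene lay below all DMSO libraries. Cyp2d26 fell in fl/fl at 3 weeks (-1.03 ± 0.24 (SE; adjusted p = 0.000927)) and was not called in labelled PTKO (-0.39 (adjusted p = 0.151)). Its 6-week call in fl/fl, -0.56 (adjusted p = 0.044), ended without any of 9 of the 18 libraries (highest adjusted p = 0.248, without 6-week fl/fl replicate 1). Cyp2d22 did not fall in any comparison. In labelled PTKO it was called higher at both times, at 28.4 ± 5.66 CPM with DMSO, 48.3 ± 8.39 at 3 weeks and 49.3 ± 18.8 at 6 weeks. The 6-week call ended without 6-week replicate 3 (0.44 (adjusted p = 0.0546)).

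Of the 16 Cyp2c genes only Cyp2c44 and the barely detected Cyp2c69 were tested. Cyp2c44, the kidney's Cyp2c epoxygenase of arachidonic acid, was 52.6, 40.7 and 46.2 CPM in fl/fl DMSO and 35.6, 49.9 and 42.9 in labelled PTKO DMSO. With AAI it was 14.7, 14.3 and 11.8 CPM in fl/fl against 25.2, 28.7 and 32.3 in labelled PTKO at 3 weeks, and 15.5, 22.3 and 20.2 against 38.5, 34.6 and 37.4 at 6 weeks. Among the AAI libraries every one labelled PTKO was above every fl/fl one of the same time. The changes against DMSO were -1.70 ± 0.15 (SE; adjusted p = 4.17e-08) and -1.23 ± 0.15 (SE; adjusted p = 2.28e-06) in fl/fl at 3 and 6 weeks. In labelled PTKO they were -0.55 ± 0.15 (SE; adjusted p = 0.00344) and -0.20 ± 0.15 (SE; adjusted p = 0.244), the last not called.

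The Cyp4a genes, whose enzymes hydroxylate the end of fatty acids and, for Cyp4a12a, make the arachidonic acid product HETE, are a cluster on chromosome 4. They summed to 836, 925 and 779 CPM in fl/fl DMSO, 114, 108 and 98.9 at 3 weeks and 209, 471 and 284 at 6 weeks. In labelled PTKO the sums were 1325, 1257 and 995, 272, 441 and 529.7 and 539.9, 722 and 472 CPM. All 3-week libraries lay below all DMSO libraries. Of 8 genes 6 were tested, and 5 fell in fl/fl at each time (18.2% and 13.9% of all genes). In labelled PTKO 4 fell at 3 weeks and 2 at 6 weeks (13.9% and 11.4%), and the interaction tests described below called 0 of the 6 at either time.

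Cyp4a12a was 241, 286 and 221 CPM in fl/fl DMSO and 784, 684 and 587 in labelled PTKO DMSO. After AAI it was 8.51, 4.92 and 6.5 CPM in fl/fl and 90.6, 74.6 and 61.3 in labelled PTKO at 3 weeks, and 3.39, 16.7 and 4.33 and 85.4, 76.3 and 13.8 at 6 weeks. The libraries labelled PTKO were above all fl/fl ones with DMSO and at 3 weeks, and 6-week replicate 3 labelled PTKO lay within the fl/fl range. Against DMSO the change was -5.05 ± 0.54 (SE; adjusted p = 4.44e-07) and -5.06 ± 0.54 (SE; adjusted p = 7.11e-07) in fl/fl and -3.17 ± 0.54 (SE; adjusted p = 8.57e-05) and -3.88 ± 0.54 (SE; adjusted p = 1.94e-05) in labelled PTKO. Its near copy Cyp4a12b had another course. It was 19.4, 18.7 and 12.9 CPM in fl/fl DMSO, 17.7, 10.8 and 17.2 at 3 weeks and 1.89, 4.52 and 3.94 at 6 weeks, so the 3-week libraries overlapped DMSO and the 6-week libraries lay below both. The change in fl/fl was -0.16 ± 0.44 (SE; adjusted p = 0.753) at 3 weeks and -2.05 ± 0.44 (SE; adjusted p = 0.000603) at 6 weeks. Only 37.8% of the 31-base words of Cyp4a12a and 37.1% of those of Cyp4a12b occur in no other gene, so both values rest on how reads were split between them.

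Cyp4a10 and Cyp4a14 are classical targets of the fatty acid receptor PPARα. Cyp4a10 was 181, 192 and 176 CPM in fl/fl DMSO, 16.9, 30.1 and 19.8 at 3 weeks and 85.4, 204 and 115 at 6 weeks. In labelled PTKO it was 170.0, 201 and 123, 47.3, 111 and 137 and 174, 273 and 209.9 CPM. It was far below DMSO in all 3-week fl/fl libraries and within or near the DMSO range in most others. The fall was -3.02 ± 0.35 (SE; adjusted p = 1.06e-06) in fl/fl at 3 weeks and -0.84 ± 0.35 (SE; adjusted p = 0.043) in labelled PTKO, the latter lost without any of 8 of the 18 libraries (highest adjusted p = 0.288, without 3-week replicate 1 labelled PTKO). Cyp4a31 went from 348 ± 13.5 to 56.8 ± 6.07 CPM in fl/fl at 3 weeks (-2.60 ± 0.27 (SE; adjusted p = 2.82e-07)). In labelled PTKO its change was -0.84 (adjusted p = 0.0109), or -0.48 (adjusted p = 0.0798) without 3-week replicate 1. Cyp4a14 was the most variable of the tested Cyp4a genes between libraries of a group. It was 6.27, 7.5 and 2.49 CPM at 3 weeks in fl/fl, a fall of -2.67 ± 0.82 (SE; adjusted p = 0.00755), and 8.55, 38.7 and 83.98 in labelled PTKO, where no change was called (0.52 (adjusted p = 0.581)). Its 6-week call in fl/fl, -1.91 (adjusted p = 0.0455), ended without any of 9 of the 18 libraries (highest adjusted p = 0.209, without 6-week replicate 1). Cyp4a32, present at 4.47 to 7.16 CPM with DMSO, was at 0.199 to 0.972 CPM in the AAI libraries and fell in all 4 AAI comparisons (-2.27 ± 0.14 (SE; adjusted p = 1.07e-09) in fl/fl at 3 weeks). It passed the filter only through the DMSO libraries, which favours a call of a fall.

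Several of the largest rises were in the remaining Cyp4 genes. Cyp4f18, which inactivates leukotriene B4 in myeloid cells, was barely detected with DMSO, at 0.577 to 1.35 CPM. It passed the filter only through the AAI libraries, which favours a call of a rise. With AAI it was 21.6, 26.8 and 42.9 CPM in fl/fl and 16.5, 5.77 and 8.91 in labelled PTKO at 3 weeks, and 19.6, 11.6 and 19.6 and 7.95, 10.5 and 5.88 at 6 weeks. The fl/fl libraries were above those labelled PTKO at both AAI times. The rise was 4.16 ± 0.32 (SE; adjusted p = 1.01e-08) in fl/fl and 2.47 ± 0.32 (SE; adjusted p = 4.66e-06) in labelled PTKO at 3 weeks. The macrophage marker sums given above moved with it in both genotypes. Neutrophil markers (7 genes, of which Ly6g was not analysed here) summed to 0.787 to 4.12 CPM in fl/fl DMSO and 22.3 to 67.5 at 3 weeks, with 6 of 6 tested genes higher (58% of all genes). In labelled PTKO they summed to 3.27 to 11.3 and 9.26 to 19.99 CPM, with 1 of 6 higher (57.2% of all genes). The part of either list in the result was not tested.

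Cyp4f16 was 5.27, 4.83 and 4.49 CPM in fl/fl DMSO, 22.7, 26.4 and 24.2 at 3 weeks and 18.1, 15.1 and 20.4 at 6 weeks, all AAI libraries above all DMSO libraries. Its rise in fl/fl was 2.12 ± 0.13 (SE; adjusted p = 1.35e-09) and 1.68 ± 0.13 (SE; adjusted p = 2.77e-08). Cyp4v3, the mouse counterpart of the human gene mutated in Bietti crystalline dystrophy, was 8.36, 8.43 and 8.77 CPM in fl/fl DMSO, 35.98, 43.5 and 46.2 at 3 weeks and 54.3, 33.3 and 44.3 at 6 weeks, again without overlap. The rise was 2.16 ± 0.18 (SE; adjusted p = 2.33e-08) and 2.21 ± 0.18 (SE; adjusted p = 3.54e-08). In labelled PTKO both genes rose by a like amount at 3 weeks (2.07 and 2.0, adjusted p = 3.43e-09 and 1.1e-07). Cyp4f17 rose less (0.83 (adjusted p = 6.98e-05) in fl/fl at 3 weeks), and this call did not hold with quantile normalization, where the value was -0.06 (adjusted p = 0.736). Cyp4f13, at 38.1 ± 0.452 CPM in fl/fl DMSO, fell slightly in fl/fl at 3 weeks (-0.44 ± 0.11 (SE; adjusted p = 0.0019)). Of 14 genes of the Cyp4b, Cyp4f, Cyp4v and Cyp4x subfamilies 8 were tested, and 4 rose and 4 fell in 3 of the 4 AAI comparisons, with 4 and 2 in labelled PTKO at 6 weeks. Of all genes 53.7% to 59.8% rose and 11.4% to 18.2% fell, so the share of rises here was near that of all genes. Cyp4f14 and Cyp4f15 of this group passed the filter only through the DMSO libraries.

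**Figure D4:**
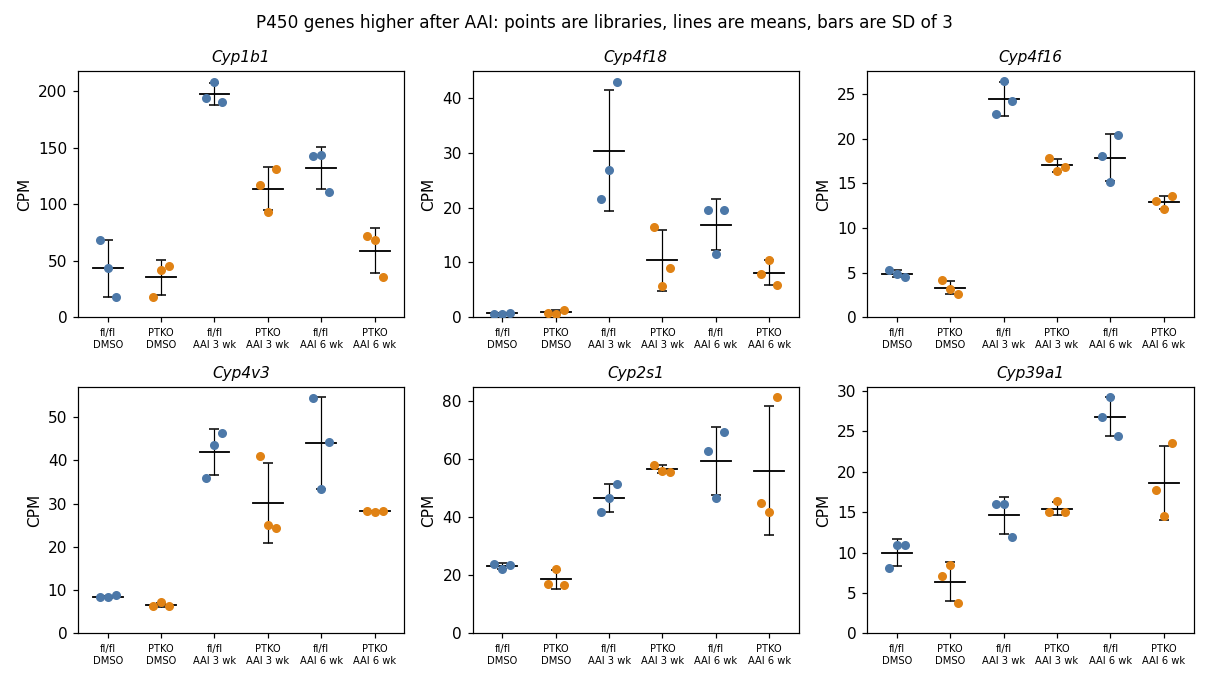
CPM (linear axis from 0) of 6 P450 genes higher after AAI. Points are libraries, lines are means and bars are the SD of 3. Cyp4f18 is near 0 in all DMSO libraries and above 5 CPM in all AAI libraries.

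Cyp1b1, which is induced through the aryl hydrocarbon receptor and hydroxylates oestrogens, was the Cyp1 gene with a response. It was 67.99, 43.5 and 18.1 CPM in fl/fl DMSO and 17.9, 42.1 and 45.6 in labelled PTKO DMSO. It was 194, 209 and 191 CPM in fl/fl and 117, 93.1 and 131 in labelled PTKO at 3 weeks, and 143, 144 and 111 and 71.8, 68.8 and 35.7 at 6 weeks. All AAI libraries exceeded their DMSO group except those labelled PTKO at 6 weeks, which overlapped it. The change was 2.35 ± 0.39 (SE; adjusted p = 5.1e-05) and 1.77 ± 0.39 (SE; adjusted p = 0.000801) in fl/fl, and 1.76 ± 0.39 (SE; adjusted p = 0.000894) and 0.77 ± 0.39 (SE; adjusted p = 0.0986) in labelled PTKO, the last not called. Fibroblast and pericyte markers (7 genes), which summed to 104 to 257 CPM in fl/fl DMSO, 2376 to 3118 in fl/fl at 3 weeks and 1109.6 to 1381 in labelled PTKO at 3 weeks, moved with Cyp1b1, and their part in it was not tested. Cyp1a1 and Cyp1a2, whose enzymes metabolise aristolochic acids, did not reach the filter. Cyp1a1 spanned 0.539 to 0.999 CPM in the DMSO libraries and 0.0872 to 1.21 in the AAI libraries. Cyp1a2 was highest in fl/fl DMSO replicate 1 (1.33, 0.203 and 0 CPM in that group). That library had the highest sum of the 8 liver markers in its group (369, 232 and 293 CPM, with Alb at 113, 32.8 and 10.4). The sum was higher in some AAI libraries, up to 1055 CPM in 3-week fl/fl replicate 1. Outside fl/fl DMSO replicate 1 Cyp1a2 did not exceed 0.203 CPM.

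The promoter of Cyp1b1 (chr17:79715062-79715311, minus strand, GRCm38.p6, RefSeq) is shown beside that of Cyp4f16 (chr17:32536307-32536556, plus strand) as examples of genes that rose. Capitals mark CACGC, the reverse strand of GCGTG, the core that the aryl hydrocarbon receptor binds with its partner ARNT, and ATTGG, the reverse strand of CCAAT.
Cyp1b1: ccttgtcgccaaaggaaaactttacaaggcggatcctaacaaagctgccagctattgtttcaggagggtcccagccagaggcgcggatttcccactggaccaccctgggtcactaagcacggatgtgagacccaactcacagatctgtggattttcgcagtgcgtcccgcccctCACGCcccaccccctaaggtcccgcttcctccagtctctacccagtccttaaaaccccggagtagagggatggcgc
Cyp4f16: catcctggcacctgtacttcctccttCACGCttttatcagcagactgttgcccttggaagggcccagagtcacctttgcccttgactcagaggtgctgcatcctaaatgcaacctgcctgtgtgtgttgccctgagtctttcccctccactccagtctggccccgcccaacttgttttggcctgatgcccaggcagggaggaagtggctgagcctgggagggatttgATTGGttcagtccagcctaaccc
Promoters were found for 76 members, 32 of them tested. Among the 16 with a promoter that fell in fl/fl at 3 weeks, 7 hold TATAAA on either strand. Of all 32851 promoters of this length 12.4% hold TATAAA, and among the 9 that rose 0 hold it. CCAAT was in 6 of the 16 and 4 of the 9 (33.8% of all), GCGTG in 3 and 4 (28.2%), and the nuclear receptor half-site AGGTCA in 2 and 0 (14%). The direct repeat of AGGTCA with 1 base between, an element bound by PPARα, was in none of the 32, and in 0.0335% of all. A member was counted if any of its promoters held the motif, while the shares of all are of single promoters. A member with several promoters thus had more chances of a match, and the measures are not alike. Near-identical neighbours such as Cyp2a4 and Cyp2a5 share their motifs and are not independent, and a match of letters is a description only.

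Among 12 steroid, sterol and bile acid enzymes 4 were tested. Cyp7b1, which hydroxylates oxysterols and steroids, varied most. It was 138, 124 and 239 CPM in fl/fl DMSO and 238, 262 and 55.8 in labelled PTKO DMSO. It was 12.9, 24.8 and 17.5 CPM in fl/fl and 36.7, 143 and 57.7 in labelled PTKO at 3 weeks, and 83.7, 422 and 96.1 and 332, 392 and 40 at 6 weeks. Only the 3-week fl/fl libraries lay wholly below their DMSO group. The change there was -3.10 ± 0.82 (SE; adjusted p = 0.00268), and none was called in labelled PTKO at 3 weeks (-1.16 (adjusted p = 0.213)) or in fl/fl at 6 weeks (-0.09 (adjusted p = 0.927)). Cyp39a1, which hydroxylates oxysterols on the way to bile acids, was 8.05, 10.97 and 10.9 CPM in fl/fl DMSO and 26.7, 29.2 and 24.4 at 6 weeks, a rise of 1.35 ± 0.22 (SE; adjusted p = 4.27e-05) without overlap. Its 3-week call in fl/fl, 0.51 (adjusted p = 0.0429), ended without any of 6 of the 18 libraries (highest adjusted p = 0.168, without fl/fl DMSO replicate 1) and was -0.26 (adjusted p = 0.276) with quantile normalization. The mitochondrial sterol hydroxylase Cyp27a1 was at 48.6 to 62.6 CPM with DMSO and 35.8 to 56.4 with AAI. It fell in labelled PTKO at 3 weeks (-0.47 ± 0.13 (SE; adjusted p = 0.00562)). Its 6-week fall there, -0.36 (adjusted p = 0.0264), was lost without any of 4 of the 18 libraries (highest adjusted p = 0.0906, without DMSO replicate 1 labelled PTKO). It was not called in fl/fl.

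Enzymes of steroid hormone synthesis were at or near 0. Cyp11b2, which makes aldosterone, and Cyp19a1, the aromatase that makes oestrogens, had no read in any library, and Cyp11b1 had none in the 6 DMSO libraries. The highest level of Cyp17a1 in any library was 1.59 CPM, and adrenal markers (10 genes) summed to 5.23 to 5.39 CPM in fl/fl DMSO and to at most 12.5 CPM in any library. Cyp8b1 and Cyp7a1, the bile acid enzymes of liver, did not exceed 0.947 and 0.363 CPM. Cyp20a1, an orphan enzyme expressed in many tissues, was 13.8, 12.9 and 13.4 CPM in fl/fl DMSO and 25.5, 27.2 and 25.6 at 3 weeks, a small rise with little spread (0.92 ± 0.10 (SE; adjusted p = 7.3e-07)). Cyp3a13, a Cyp3a gene found outside liver too, was 0.549, 0.433 and 0.593 CPM in labelled PTKO DMSO and 2.77, 3.27 and 4.01 at 3 weeks (1.5 ± 0.18 (SE; adjusted p = 3.04e-06)). It passed the filter only through the AAI libraries, which favours a call of a rise. Cyp3a11, the main Cyp3a enzyme of liver, was called lower in fl/fl at 6 weeks (-1.53 (adjusted p = 0.0127)) on 7.45, 1.83 and 0 CPM with DMSO and 0 in all 3 libraries at 6 weeks, and its highest value is again that of fl/fl DMSO replicate 1.

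The vitamin D enzymes changed little beside their spread. Cyp24a1, which breaks down calcitriol, was highest of the 3 per kilobase, and was measured at 305, 109 and 206 CPM in fl/fl DMSO, 164, 46.8 and 114 at 3 weeks and 39.3, 70.2 and 140.0 at 6 weeks. In labelled PTKO it was 305, 70.5 and 178, 55.2, 127 and 114 and 348, 139.9 and 103 CPM, and libraries of every group overlapped. No change was called, and the 95% interval at 3 weeks in fl/fl ran from -2.30 to 0.34. Cyp27b1, which makes calcitriol in the proximal tubule, was 14.5, 15.7 and 17.6 CPM in fl/fl DMSO, 22.7, 12.6 and 20.7 at 3 weeks and 32.8, 21.7 and 51.3 at 6 weeks. It was not called at 3 weeks in fl/fl (0.18 (adjusted p = 0.686)) or labelled PTKO (-0.71 (adjusted p = 0.11)). The 6-week rise in fl/fl, 1.02 ± 0.38 (SE; adjusted p = 0.0254), was 0.71 (adjusted p = 0.132) without 6-week replicate 3 and also ended without DMSO replicate 1, DMSO replicate 2 or 6-week replicate 1, and under median-of-ratios scaling (0.55 (adjusted p = 0.214)). Cyp2r1, the vitamin D hydroxylase of liver, was at 0.599 to 1.92 CPM in all libraries. Its call in fl/fl at 3 weeks, 0.49 (adjusted p = 0.0196), was 0.38 (adjusted p = 0.0881) without DMSO replicate 1, 0.40 (adjusted p = 0.0823) without 3-week replicate 2 and -0.40 (adjusted p = 0.0589) with quantile normalization.

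The vitamin D partner genes went in both directions. Of 7 genes 3 rose and 4 fell in each AAI comparison, where 53.7% to 59.8% of all genes rose and 11.4% to 18.2% fell. Kl, the coreceptor for FGF23, was 1264, 1159.7 and 1205 CPM in fl/fl DMSO and 349, 334 and 284 at 3 weeks (-1.91 ± 0.16 (SE; adjusted p = 2.59e-08)). Lrp2, the tubular receptor that takes up vitamin D with its carrier, was 2503, 2832 and 2895 and 518, 416 and 334 CPM (-2.71 ± 0.29 (SE; adjusted p = 3.57e-07)). Gc, which encodes that carrier, was higher, at 47.8, 33.1 and 40 and 179.9, 175 and 176 CPM (2.12 ± 0.23 (SE; adjusted p = 4.59e-07)).

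The retinoic acid enzymes break down retinoic acid. Cyp26a1 was 0.264 to 0.593 CPM in the DMSO libraries and 1.49, 1.55 and 1.27 CPM at 3 weeks in fl/fl (0.80 ± 0.21 (SE; adjusted p = 0.00287)), a rise that was -0.01 (adjusted p = 0.955) with quantile normalization. It passed the filter only through the AAI libraries, which favours a call of a rise. Cyp26b1 ranged from 1.25 to 27.9 CPM within the labelled PTKO DMSO group alone and was called in no AAI comparison. Of 11 retinoid partner genes 10 were tested, and 7 rose and 0 fell in fl/fl at 3 weeks, a share of rises near that of all genes (58%). Aldh1a2, which makes retinoic acid, was 7.81, 5.28 and 3.54 CPM in fl/fl DMSO and 173, 163 and 186 at 3 weeks (4.79 ± 0.36 (SE; adjusted p = 7.82e-09)). Aldh1a1, of the same enzyme family, rose by 2.18 (adjusted p = 9.98e-07).

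The genes that serve P450 enzymes went in both directions after AAI. Por, the electron donor of all microsomal P450 enzymes, was 574, 570.0 and 563 CPM in fl/fl DMSO and 221, 196 and 196 at 3 weeks (-1.48 ± 0.11 (SE; adjusted p = 9.72e-09)). In labelled PTKO it was 578, 532 and 407 and 242, 269 and 285 CPM (-0.92 ± 0.11 (SE; adjusted p = 2.87e-06)), and no 3-week library of either genotype reached the DMSO range. Fdx1, the ferredoxin of mitochondrial P450 enzymes, changed by -1.02 (adjusted p = 1.13e-07) and Cyb5b by -0.86 (adjusted p = 2.85e-06) in fl/fl. Of 6 electron transfer genes 5 were tested, and 3 fell and 1 rose in each AAI comparison (11.4% to 18.2% of all genes fell and 53.7% to 59.8% rose). Of 8 heme synthesis genes 6 fell in fl/fl at each time and 5 and 3 in labelled PTKO at 3 and 6 weeks, and 0 rose. At 3 weeks those that fell included Cpox, Fech and Alad (-1.60, -1.14 and -0.85 in fl/fl, adjusted p = 3.58e-08, 6.45e-08 and 2.61e-06). Of 14 genes for regulators of P450 transcription 13 were tested, and 8 fell and 4 rose in fl/fl at 3 weeks and 7 and 4 at 6 weeks. In labelled PTKO 6 fell and 5 rose at 3 weeks and 6 and 4 at 6 weeks. Hnf4a, a transcription factor of proximal tubule and liver, was 1199, 1256 and 1216 CPM with DMSO and 509, 373 and 272 at 3 weeks (-1.71 ± 0.19 (SE; adjusted p = 6.8e-07)). Ahr, the aryl hydrocarbon receptor, was 9.51, 9.4 and 10.6 and 29.4, 35.8 and 32.1 CPM, a rise of 1.62 ± 0.14 (SE; adjusted p = 3.6e-08).

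Genes of the eicosanoid pathway went in both directions. Of 8 tested, 7 rose and 1 fell in each AAI comparison, against 53.7% to 59.8% and 11.4% to 18.2% of all genes. Alox5, the leukocyte enzyme that makes leukotrienes, was under 1 CPM in fl/fl DMSO and 29.1, 20.9 and 27.9 CPM at 3 weeks (4.20 ± 0.22 (SE; adjusted p = 2.77e-10)). The phospholipase Pla2g4a rose by 2.69 (adjusted p = 2.1e-10) and the microsomal epoxide hydrolase Ephx1 by 2.68 (adjusted p = 1.93e-10). Ephx2, the soluble epoxide hydrolase, was the 1 that fell, from 628 ± 57.99 to 92.5 ± 15.8 CPM in fl/fl at 3 weeks, and is named here after its values were seen. Of 6 sterol genes 4 rose and 1 fell in fl/fl at 3 weeks, shares near those of all genes (58% and 18.2%). Cyp51, which demethylates lanosterol, was 235, 224 and 293 CPM in fl/fl DMSO, 68.9, 102 and 80.2 at 3 weeks and 162, 279.7 and 129.8 at 6 weeks. It fell at 3 weeks (-1.58 ± 0.26 (SE; adjusted p = 3.99e-05)) and was not called at 6 weeks (-0.46 (adjusted p = 0.117)). The sterol exporter Abca1 rose at 3 weeks (2.67 (adjusted p = 6.69e-10)).

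Between 3 and 6 weeks some members that AAI had lowered were partly regained in fl/fl. There 9 members were higher at 6 weeks (7.16% of all genes) and 3 lower (6.07%), and the median member moved by 0.17 against 0.001 over all genes. Of the 9, Cyp39a1 had not been lowered by AAI. It averaged 9.97 CPM with DMSO, 14.6 at 3 weeks and 26.7 at 6 weeks. The calls of Cyp39a1 and Cyp2c44 ended without any of 2 and 12 of the 18 libraries (highest adjusted p = 0.102 and 0.201). Cyp2d9 changed by 3.53 ± 0.41 (SE; adjusted p = 0.000264), Cyp2a4 by 3.96 ± 0.70 (SE; adjusted p = 0.00291), Cyp4a10 by 2.49 ± 0.35 (SE; adjusted p = 0.000833), Cyp2j11 by 1.94 ± 0.32 (SE; adjusted p = 0.00222) and Cyp4a31 by 1.46 ± 0.27 (SE; adjusted p = 0.00373). Without the 3 libraries that stood apart these were 3.23 (adjusted p = 0.0043), 3.39 (adjusted p = 0.0333), 2.15 (adjusted p = 0.0112), 1.5 (adjusted p = 0.0173) and 1.2 (adjusted p = 0.0398). Cyp7b1 changed by 3.01 (adjusted p = 0.0261). This was 2.27 (adjusted p = 0.139) without 6-week replicate 2, 2.79 (adjusted p = 0.0653) without 3-week replicate 1 and 3.0 (adjusted p = 0.0851) without 3-week replicate 3. Cyp2j5 changed by 1.0 (adjusted p = 0.0338), and this call ended without 6-week replicate 2 (0.70 (adjusted p = 0.171)), 3-week replicate 2 (0.99 (adjusted p = 0.0788)) or 3-week replicate 3 (0.83 (adjusted p = 0.146)). Without the libraries that stood apart, 5 members were higher and 1 lower.

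The 3 members lower at 6 weeks than at 3 weeks in fl/fl had small changes except for Cyp4a12b. Cyp4a12b changed by -1.89 (adjusted p = 0.013), or -1.79 (adjusted p = 0.0609) without 3-week replicate 3, and Cyp4f16 and Cyp20a1 by -0.44 and -0.37, each lost without 6-week replicate 2 (adjusted p = 0.184 and 0.115) and without other single libraries. In labelled PTKO 3 members were higher at 6 weeks (2.92% of all genes) and 1 lower (8.26%). Cyp2d9 was higher by 1.53 ± 0.41 (SE; adjusted p = 0.0266), a call that ended without 3-week replicate 1 (1.35 (adjusted p = 0.108)), 3-week replicate 3 (1.42 (adjusted p = 0.0889)) or 6-week replicate 1 (1.37 (adjusted p = 0.0974)). Cyp27b1 and Cyp4a10 were higher by 1.29 (adjusted p = 0.0415) and 1.25 (adjusted p = 0.0342), and both calls ended without the libraries that stood apart (0.95 (adjusted p = 0.118) and 1.08 (adjusted p = 0.0708)). The genotype difference in the 6-week minus 3-week change was called for 0 members with limma (0% of all genes), with 4 at an unadjusted p under 0.05, and for 0 with edgeR and with DESeq2. The share of all genes at that unadjusted level was not counted.

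The libraries with high levels of these genes at 6 weeks were largely the same ones. In fl/fl replicate 2 had the highest value of Cyp2a4, Cyp2d9, Cyp4a10, Cyp4a31, Cyp2j5, Cyp2j11 and Cyp7b1. In labelled PTKO replicate 3 had the lowest value of each of these but Cyp4a10. Kap, an androgen-regulated gene of the proximal tubule, was 27926, 31870.3 and 28349 CPM in fl/fl DMSO, 68.5, 436 and 180.2 at 3 weeks and 4353, 13121 and 3057 at 6 weeks, and in labelled PTKO 28448, 30795 and 26267, 979, 2852 and 787 and 9359, 6917 and 683 CPM. Kap thus was highest at 6 weeks in fl/fl replicate 2 and lowest in replicate 3 labelled PTKO. The S3 segment list (8 genes) summed to 5360.0 to 5898 CPM in fl/fl DMSO, 429 to 931 at 3 weeks and 1868 to 4433 at 6 weeks. In labelled PTKO the list summed to 4044 to 6564 CPM with DMSO, 1588 to 2891 at 3 weeks and 2468 to 4466 at 6 weeks. The part of either in these results was not tested. All libraries had Y-linked Ddx3y at 37.8 CPM or more and Xist at 0.256 CPM or less.

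With DMSO no member was called (0.288% of all genes were) by limma, edgeR or DESeq2, and 8, 8 and 7 members had an unadjusted p under 0.05. The share of all genes at that unadjusted level was not counted. Cyp4a12a was the member with the largest difference in favour of labelled PTKO whose libraries did not overlap, 1.45 ± 0.54 (SE; adjusted p = 0.518) with a 95% interval of 0.30 to 2.61. Cyp2d26 was 192, 176 and 137 CPM in fl/fl DMSO and 269, 255 and 244 in labelled PTKO, 0.61 ± 0.24 (SE; adjusted p = 0.557), also without overlap. In all, the libraries of the genotypes did not overlap for 2 of the 45 members higher in labelled PTKO (7.04% of all genes) and 10 lower (9.44%).

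After 3 weeks of AAI 8 members were higher in labelled PTKO than in fl/fl (6.22% of all genes) and 3 lower (8%). The higher ones were all genes that AAI lowered in fl/fl. Cyp4a12a differed by 3.33 ± 0.54 (SE; adjusted p = 0.00256), Cyp2d9 by 2.11 ± 0.41 (SE; adjusted p = 0.00591), Cyp4a10 by 2.0 ± 0.35 (SE; adjusted p = 0.00373), Cyp4a31 by 1.54 ± 0.27 (SE; adjusted p = 0.00366) and Cyp2d26 by 1.25 ± 0.24 (SE; adjusted p = 0.00536). Cyp2c44 differed by 1.03 ± 0.15 (SE; adjusted p = 0.00158), with 14.7, 14.3 and 11.8 CPM in fl/fl and 25.2, 28.7 and 32.3 in labelled PTKO. Cyp2d12 and Cyp2j11 differed by 1.5 (adjusted p = 0.0129) and 1.39 (adjusted p = 0.013), and both calls ended without 3-week fl/fl replicate 3 (adjusted p = 0.0695 and 0.0748) or labelled PTKO replicate 2 (0.0788 and 0.0776). The libraries of the genotypes did not overlap for any of these 8 genes. They were picked by adjusted p in the same libraries, so this is no separate support.

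The 3 lower members were among those that AAI raised. Cyp4f18 differed by -1.52 ± 0.32 (SE; adjusted p = 0.00804), Cyp4f16 by -0.50 ± 0.13 (SE; adjusted p = 0.0226) and Cyp20a1 by -0.40 ± 0.10 (SE; adjusted p = 0.02). Without 3-week fl/fl replicate 3 Cyp4f18 was -1.25 (adjusted p = 0.0579), and without labelled PTKO replicate 2 it was -1.2 (adjusted p = 0.0562). The calls of Cyp4f16 and Cyp20a1 each ended without any 1 of 4 libraries, which were 3-week replicates 2 and 3 of both genotypes (highest adjusted p = 0.0978 and 0.0854, both without labelled PTKO replicate 2). Cell markers moved in the same comparison, where 6.22% of all genes were higher in labelled PTKO and 8% lower. Of the S1 and S2 list 7 genes were higher in labelled PTKO and 0 lower, of the S3 list 7 and 0, and of the macrophage list 0 higher and 8 lower, with the sums given above. The part of these in the P450 differences was not tested.

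**Figure D5:**
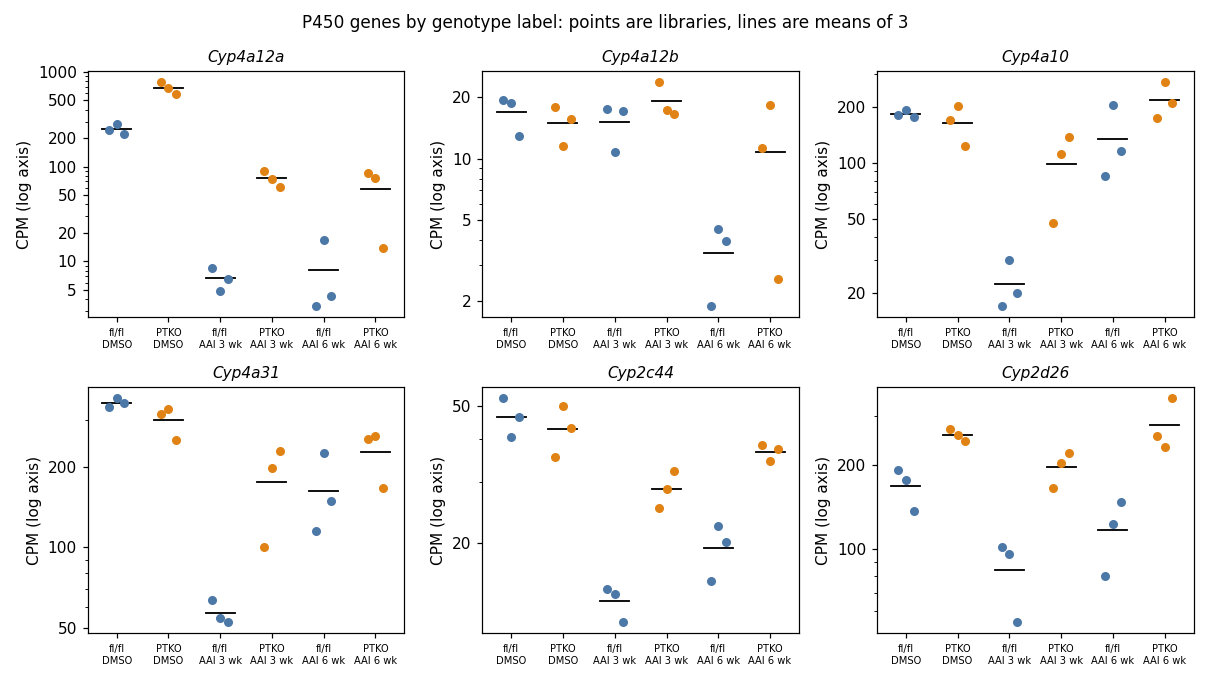
CPM (log axis) of 6 P450 genes in the 6 groups. Points are libraries and lines the means of 3. Cyp2c44 lies higher in the labelled PTKO libraries than in the fl/fl libraries at both AAI times, and Cyp4a12a and Cyp2d26 already do so with DMSO.

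At 6 weeks 4 members were higher in labelled PTKO (3.27% of all genes) and 4 lower (11.8%). Cyp2d26 was 80.3, 123 and 147 CPM in fl/fl and 253, 233 and 346 in labelled PTKO (1.26 ± 0.24 (SE; adjusted p = 0.00468)), and Cyp2c44 differed by 0.91 ± 0.15 (SE; adjusted p = 0.002). Cyp4a12a differed by 2.63 ± 0.54 (SE; adjusted p = 0.00759), with 1 library overlapping, and by 2.25 (adjusted p = 0.0525) without fl/fl replicate 1. Cyp2d12 differed by 1.14 (adjusted p = 0.0386), a call that ended without any of the 5 single 6-week libraries fl/fl replicate 1, fl/fl replicate 3 and the 3 labelled PTKO replicates (highest adjusted p = 0.203). The 4 lower ones were Cyp1b1 (-1.21 (adjusted p = 0.0491)), Cyp4f18 (-0.97 (adjusted p = 0.0494)), Cyp4v3 (-0.59 (adjusted p = 0.0361)) and Cyp4f16 (-0.43 (adjusted p = 0.0376)). All 4 calls ended under median-of-ratios scaling (adjusted p = 0.0853, 0.0781, 0.0582 and 0.0975), so that the split became 4 higher and 0 lower, and without any of 14, 12, 5 and 5 of the 18 libraries respectively. Quantile normalization gave 6 higher and 1 lower. Without the libraries that stood apart the counts were 5 higher and 3 lower, and without 6-week replicate 3 labelled PTKO 4 higher and 0 lower.

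Whether AAI changed a member by a different amount in the genotypes was tested as an interaction. At 3 weeks 1 member passed, Cyp2c44 (0.281% of all genes), which fell by 1.15 log2 units less in labelled PTKO than in fl/fl (1.15 ± 0.21 (SE; adjusted p = 0.045)). In all, 15 members had an unadjusted p under 0.05, and 4 members were called without 6-week replicate 3 labelled PTKO. The share of all genes at an unadjusted p under 0.05 was not counted, so no excess can be read from such counts. The Cyp2c44 call was made in 18 of 29 settings. It ended without any of 9 of the 18 libraries (highest adjusted p = 0.139, without 3-week labelled PTKO replicate 2) and without the libraries that stood apart (1.06 (adjusted p = 0.0589)). Cyp4a31, Cyp2d12 and Cyp4a10 had larger estimates, 1.76 (adjusted p = 0.0525), 2.16 (adjusted p = 0.0602) and 2.18 (adjusted p = 0.0607), each called in 7 of the 29 settings. For Cyp4a12a the interaction was 1.88 (adjusted p = 0.209), and it was called in 1 of the 29 settings, with only the groups compared (1.88, adjusted p = 0.00768). At 6 weeks 0 members passed with limma (0.0685% of all genes), with 6 at an unadjusted p under 0.05, 0 with edgeR and 1 with DESeq2, and Cyp2c44 was at 1.03 (adjusted p = 0.0899).

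The 58 members below the filter were 10 with no read in any library, 41 that stayed under 1 CPM and 7 that reached 1 CPM in 1 or 2 libraries. They include 14 of the 16 Cyp2c genes and 7 of the 9 Cyp3a genes. Of the 48 detected ones 15 were highest in fl/fl DMSO replicate 1, among them Cyp2c29 at 6.30 CPM, an abundant Cyp2c enzyme of liver, and 12 of these had at least 0.3 CPM there. The level of 0 in 1 library allows up to 3 reads, or 0.110 to 0.256 CPM across libraries, for counting error only. Of the 45 tested members 35 have over 80% of their 31-base words in no other gene and 6 have under 50%.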

How the data were processed

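The submitters' processing notes name bcl2fastq 2.19, kallisto and the mm10 build. The deposited table gives CPM made by the authors for 24062 symbols in 18 libraries, which were assigned to 6 groups by their titles. All 433116 values (100%), times the library total, lay within 0.01 of a whole read. The recovered totals, 11722625 to 27213219 reads per library, served edgeR 4.0.16 and DESeq2 1.42.0, used as alternatives only. A total of 27 symbols turned into dates were kept unnamed. How the authors' counts were split between near-identical genes is not given in the sources used here.

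A gene was tested if it had 1 CPM or more in 3 or more libraries. The main test was limma 3.58.1 (R 4.3.3) on log2(CPM + 1), with a mean for each of the 6 groups, all 18 libraries in 1 fit, and a variance trend. It was two-sided, with Benjamini-Hochberg adjustment across 14604 genes in each of 12 comparisons, and was tested on simulated data. Few genes changed in the simulated data, evenly up and down, so they cannot check the test where most genes rise. Fold changes on this scale understate the change of low genes. The members, gene lists and comparisons were chosen with earlier results of these data known. The genes named are up to 8 members per comparison and direction with the largest called change, a mean of 1 CPM or more in the group where they are higher and separate libraries. To these come the 3 members of each subfamily with the highest mean, a fixed list of enzymes and up to 3 genes of each partner list. Others are named from counts of few genes or as markers.

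Alternatives were another pseudocount (0.1), filter (none, or 5 CPM) or scaling (median of ratios, quantile), a fit of the compared groups only, a replicate block, edgeR, DESeq2 and each library left out. Leaving out the 3 libraries that stood apart was chosen after seeing the data. Promoters are the 250 bases before RefSeq starts (GRCm38.p6), searched for 5 motifs on both strands. A few genes of the lists are counted but not reported here by name. The 31-base words come from GENCODE M21 transcripts.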

Additional observations from a re-analysis of the deposited data

Results flagged for a closer look

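The AAI effect on Cyp2c44, an arachidonic acid epoxygenase, differed between the genotypes at 3 weeks by the interaction test, with an estimate of 1.15 on the log2(CPM + 1) scale (limma, Benjamini-Hochberg adjusted p = 0.045). The fall against DMSO was -1.70 in fl/fl and -0.55 in labelled PTKO. All 3 labelled PTKO libraries (25.2, 28.7 and 32.3 CPM) lay above all 3 fl/fl libraries (14.7, 14.3 and 11.8 CPM). It was the 1 member of 45 with this call (0.281% of all genes), and the call was made in 18 of 29 settings. It ended without any of 9 of the 18 libraries (highest adjusted p = 0.139) and without the 3 libraries that stood apart. Cyp4a31, Cyp2d12 and Cyp4a10 had larger estimates without a call, as given above, and each was called in 7 of the 29 settings.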

How the results depend on the processing

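With 3 libraries per group the calls near the threshold depend on single libraries. Of 256 calls of named genes 178 held in every alternative and 78 were lost in at least 1. With quantile normalization the members higher after AAI numbered 6 (fl/fl, 3 weeks), 7 (labelled PTKO, 3 weeks), 6 (fl/fl, 6 weeks) and 7 (labelled PTKO, 6 weeks), and 23 were lower in labelled PTKO at 6 weeks. The counts of all genes with quantile normalization are given above. In fl/fl at 6 weeks 8 were higher under median-of-ratios scaling, edgeR and DESeq2. Of the 14604 genes 4978, 4961 and 4991 were higher there. For the genotypes with DMSO, 1 member was called when only the compared groups were fitted. At 6 weeks the genotypes differed for 4 members with a pseudocount of 0.1, median-of-ratios scaling or edgeR, for 3 with no filter and for 1 with only the compared groups. The 6-week minus 3-week counts were 6 in fl/fl without the libraries that stood apart, and in labelled PTKO 1 with only the compared groups, 2 without the libraries that stood apart and 7 with DESeq2. The interaction at 3 weeks was called for 0 with no filter, 2 with the replicate block, 7 with only the compared groups and 8 with DESeq2. DESeq2 called 307 of the 14604 genes higher and 251 lower in that interaction. The interaction at 6 weeks was called for 1 without the libraries that stood apart and 1 with DESeq2, and the difference in the 6-week minus 3-week change for 1 with no filter. The cause of these changes was not tested.

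Leaving out 1 library at a time gave 23 to 24 lower and 9 to 12 higher for AAI at 3 weeks in fl/fl, 18 to 21 and 11 to 12 in labelled PTKO, 18 to 23 and 11 to 13 at 6 weeks in fl/fl, and 10 to 15 and 10 to 12 in labelled PTKO. It gave 0 to 1 genotype calls with DMSO, 6 to 15 at 3 weeks and 2 to 9 at 6 weeks. The 6-week minus 3-week counts were 5 to 12 in fl/fl and 0 to 6 in labelled PTKO, and the interactions 0 to 6 at 3 weeks, 0 to 2 at 6 weeks and 0 to 0 for the difference in change.

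Small rises changed sign with the scaling. With quantile normalization Cyp4f17 was -0.0562 at 3 weeks and -0.50 at 6 weeks in fl/fl and -0.35 in labelled PTKO at 6 weeks. In fl/fl at 3 weeks Cyp39a1 was -0.26, Cyp26a1 -0.0145, Cyp3a13 -0.35 and Cyp2r1 -0.40. At 6 weeks Cyp20a1 was -0.14 in fl/fl and -0.13 in labelled PTKO, and Cyp3a13 -0.45 in fl/fl. In fl/fl at 6 weeks Cyp4f17 was -0.00561, -0.000504 and -0.000936 and Cyp2j6 -0.00973, -0.00161 and -0.000958 under median-of-ratios scaling, edgeR and DESeq2.

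Replicate numbers share only a number. Over 45 pairs of same-numbered libraries the correlation of deviations from the group means ran from -0.372 to 0.491 (median 0.00821, with 10 over 0.1), and 5 of 18 libraries correlated best with their own number. With the replicate block 251 named calls held and 5 were lost, and the interaction at 3 weeks had 2 calls. At the depth of 11722625 reads a level under 0.256 CPM is not told from 0.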
